A study of Mus musculus with 11 samples.

Results

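The genes described here are 42 mouse genes that cells switch on to copy their DNA and to divide, measured in otospheres, in the cochlear sensory epithelium (CSE) and in embryonic stem cells (ESCs). They were taken by gene symbol from a fixed list, through the RefSeq accession that the array gives for each probe, and the brightest probe stood for a gene that had several. All 42 were measured, out of 18565 named genes that passed the filter on dim probes. They fall into 8 roles: 12 genes of the replication machinery, 4 of nucleotide supply, 5 cyclins and Cdk1, 3 transcription factors, 7 mitotic kinases and checkpoint genes, 4 spindle motors and assembly factors, 5 genes of the kinetochore and of cohesion, and 2 of chromosome structure.

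The study compared spheres grown from the cochlea with the tissue they came from and with pluripotent cells on 11 single-colour microarrays. By their labels, 6 arrays carried otosphere RNA (numbered OS1 to OS6), 3 carried CSE RNA and 2 carried ESC RNA. Otospheres and CSE came from mice of the ICR strain, an outbred stock, on postnatal day 1, and the cochleae of several animals were pooled in a preparation. The otospheres were secondary solid spheres, meaning dissociated CSE cells grown in suspension with basic fibroblast growth factor and insulin-like growth factor 1, passaged 1 time, and strained to remove hollow spheres. CSE was the dissected tissue itself, without spiral ligament and stria vascularis, and markers of nerve, vessels, macrophages and blood were measured in it. ES1 was the line G4-2 and ES2 the line D3, each at passage 13 and kept undifferentiated without feeder cells in serum and leukaemia inhibitory factor. The ESC group is thus 2 different lines, each measured 1 time, and their strain was not given. OS1 with OS2, and OS4 with OS5, differed by about the noise between spots of the same probe or less, so each pair was averaged and counted as 1 sample (OS1-2 and OS4-5). That left 4 otosphere, 3 CSE and 2 ESC samples. ES1, OS1-2, OS3, CSE1 and CSE2 lay on the first slide, and ES2, OS4-5, OS6 and CSE3 on the second. Nothing in the labels says which spheres came from separate cultures, so p-values measure only the spread between these samples.

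A dividing cell licenses its replication origins by loading the MCM helicase in G1, fires them in S phase under cyclin-dependent kinases, and then builds a spindle that pulls the copied chromosomes apart in mitosis. Genes for these steps are transcribed in waves. E2F factors drive the wave at the start of S phase, and MYBL2, FOXM1 and the MuvB complex drive the wave in G2 and mitosis, so their RNA in a tissue follows how many of its cells are cycling. In the cochlea, hair cells and supporting cells leave the cell cycle before birth and do not divide again in the mature organ, whereas mesenchymal and other nonsensory cells around them still divide after birth. ESCs have a short G1 phase and divide quickly.

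The arrays gave median spot intensities of 68.0 to 116.0 against a local background of 32.0 to 38.0, and 55.1 to 71.6% of spots were well above background. Of the 42 genes, 39 were well above background on all 11 arrays. The exceptions were Aurkb (on 2 of 6 otosphere and 1 of 3 CSE arrays), Cenpf (on 2 of 6 and 1 of 3) and Kif11 (on 5 of 6 otosphere arrays). ESC markers such as Pou5f1 checked the labels: their mean log2 signal, centred per gene, was 5.49 and 6.06 in the 2 ESC lines against -1.88 to -1.40 in the other samples. By limma (adjusted p under 0.05), 5 of these 6 markers were lower in otospheres than in ESCs, and 5 in CSE, against 15.6% of probes each. In each comparison 1 marker was higher than in ESCs, by 1.44 in otospheres and 1.65 in CSE, without passing. Hair cell markers averaged 1.62 to 1.93 in CSE and -1.31 to 0.76 in otospheres, and supporting cell markers 1.90 to 2.25 in CSE and -0.99 to -0.39 in otospheres.

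The replication and mitosis genes as a group did not separate otospheres from CSE, and they were far lower in both than in ESCs. The 4 otosphere samples, however, lay on both sides of CSE, in nearly the same order for every gene. The list mean of the log2 signal, centred per gene over the 9 samples, was 0.73 in OS1-2, -0.39 in OS3, -1.04 in OS4-5 and -2.17 in OS6. It was -0.36, -0.80 and -0.76 in CSE1, CSE2 and CSE3, and 2.33 and 2.45 in ES1 and ES2. OS1-2 was therefore above every CSE sample and OS6 below every one, with the ESC lines above all the rest.

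**Figure D1:**
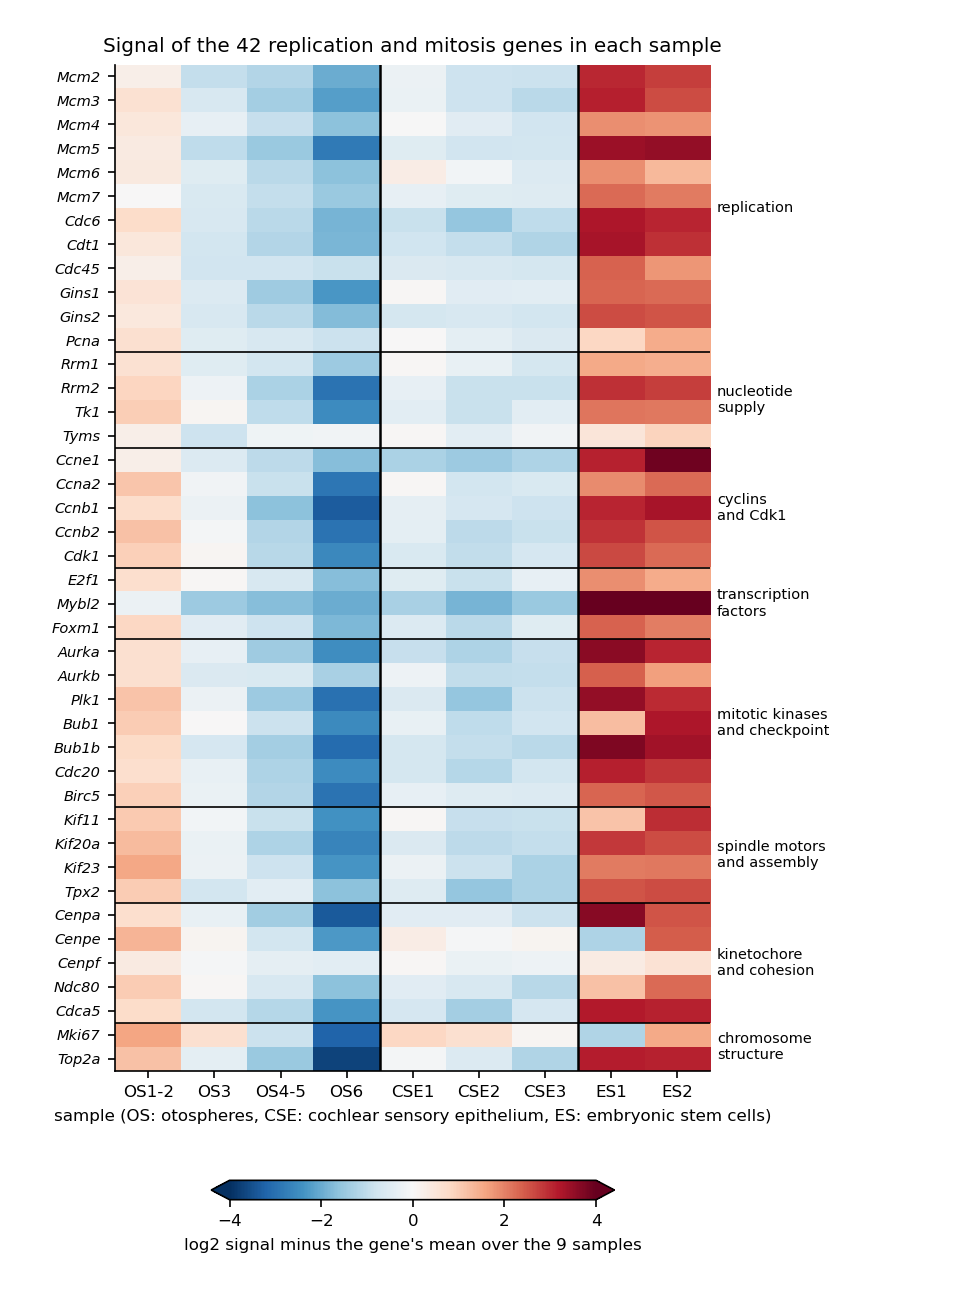
Log2 signal of the 42 genes (rows, grouped by role) in the 9 samples (columns), minus each gene's mean over the samples. The colour scale ends at 4 on either side and values beyond it take the end colour. The ESC columns are the reddest for nearly every gene, and among otospheres OS1-2 is the highest for 42 of 42 genes and OS6 the lowest for 41.

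Sequences upstream of 4 of these genes are shown because the 42 genes moved together across the samples and promoters of cell cycle genes are known for a small set of shared motifs. RefSeq promoter sequences of the build GRCm38.p6 were found for 34 of the 42 genes. The 250 bases before the start were searched on both strands for CCAAT, the box bound by NF-Y, for TTTGAA, the cell cycle homology region bound by the MuvB complex, and for TTCCCGC or TTGGCGC, forms of the E2F site. CCAAT was present in 24 of 34 promoters (70.6%), against 37.5% of 27025 promoters of all genes. TTTGAA was present in 9 (26.5%), against 18.3%, and an E2F form in 8 (23.5%), against 6.45%. Of 13 promoters of replication and nucleotide supply genes, 5 held an E2F form (38.5%), against 3 of the 21 other promoters (14.3%). At least 1 of the motifs was found in 26 promoters, and 8 had none in this window, among them those of E2f1, Mybl2, Ccne1 and Ndc80. The entries of E2f1, Mybl2, Tyms and Tk1, all without a motif, begin at a start other than the outer end of the annotated gene. The same holds for some entries with a motif, such as those of Cdc6 and Mki67. An empty window at such an entry does not show that the promoter of the gene lacks the motif. Foxm1, Mcm4, Kif20a, Tpx2, Ccna2, Gins2, Aurkb and Gins1 had no entry. Different motifs shared letters only in Ccnb1, where 4 bases belonged both to a CCAAT box and to an E2F form. The sequences are the 250 bases upstream of Mcm6 (chr1:128359706-128359955, minus strand), a subunit of the replicative helicase, Cdk1 (chr10:69352913-69353162, minus strand), the mitotic kinase, Cdc20 (chr4:118437344-118437593, minus strand), the activator of the anaphase-promoting complex, and Top2a (chr11:99024190-99024439, minus strand), the topoisomerase that untangles sister chromatids. They are written 5′ to 3′ with the matches on either strand in capitals.
Mcm6: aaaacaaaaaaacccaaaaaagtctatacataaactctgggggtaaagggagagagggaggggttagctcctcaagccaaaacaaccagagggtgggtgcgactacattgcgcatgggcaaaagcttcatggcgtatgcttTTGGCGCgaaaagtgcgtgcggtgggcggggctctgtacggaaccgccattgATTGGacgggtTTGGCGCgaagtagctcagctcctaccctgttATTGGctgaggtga
Cdk1: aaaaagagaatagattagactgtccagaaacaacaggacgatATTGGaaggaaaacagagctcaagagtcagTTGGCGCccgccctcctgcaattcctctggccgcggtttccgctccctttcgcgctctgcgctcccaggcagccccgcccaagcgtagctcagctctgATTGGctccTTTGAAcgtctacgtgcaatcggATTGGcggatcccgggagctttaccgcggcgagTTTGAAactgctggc
Cdc20: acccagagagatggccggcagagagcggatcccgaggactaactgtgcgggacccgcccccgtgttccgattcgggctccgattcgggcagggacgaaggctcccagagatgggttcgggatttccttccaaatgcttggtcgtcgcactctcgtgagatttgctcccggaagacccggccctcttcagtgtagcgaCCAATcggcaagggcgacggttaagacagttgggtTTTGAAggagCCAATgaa
Top2a: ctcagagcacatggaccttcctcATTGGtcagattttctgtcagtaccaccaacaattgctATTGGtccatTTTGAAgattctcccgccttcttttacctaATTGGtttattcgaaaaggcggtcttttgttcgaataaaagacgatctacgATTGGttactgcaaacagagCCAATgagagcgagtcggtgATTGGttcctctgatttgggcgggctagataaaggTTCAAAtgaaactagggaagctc
Mcm6 held 2 copies of TTGGCGC, starting 109 and 46 bases before the start, and 2 inverted CCAAT boxes. Cdk1 held 3 inverted CCAAT boxes, 1 TTGGCGC and TTTGAA at 71 and 15 bases before the start. Cdc20 held CCAAT at 53 and 8 bases and TTTGAA at 18 bases. Top2a, the gene with the widest difference between otosphere samples, held 6 CCAAT boxes and 2 copies of TTTGAA, but its entry begins at a start other than the outer end of the annotated gene. These matches describe letters and not binding.

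Otospheres were first compared with CSE, the question being whether cells taken from the epithelium into sphere culture carried more proliferation transcripts. By limma with Benjamini-Hochberg adjustment over 47997 probes, 0 of 42 genes were higher in otospheres, where 4.84% of all probes were, and 0 of 42 were lower, where 6.19% were. None had an unadjusted p under 0.05. The difference was above 0 for 21 genes and below it for 21, with a median of -0.01 and a range of -0.99 to 0.67 on the log2 scale, against a median of 0.02 over all probes. No gene had all otospheres above all CSE samples (10.8% of probes) or all below (12.7%). These intervals are wide: for Ccnb1 the 95% interval ran from -2.33 to 1.30 and for Mki67 from -3.42 to 1.44, so a missed threshold does not show equal levels. Without OS1-2 the median over the genes was -0.53 and 5 genes had an unadjusted p under 0.05, and without OS6 it was 0.47 with 1 such gene, with 0 past the adjusted threshold each time.

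Spread among the otospheres was the main feature of these genes. OS1-2 was the highest otosphere sample for 42 of 42 genes (24.6% of all probes), and OS6 the lowest for 41 (23.9%), the exception being Tyms. The whole order, with OS1-2 above OS3, OS3 above OS4-5 and OS4-5 above OS6, held for 40 genes, against 5.96% of probes. It broke for Tyms, the thymidylate synthase, and for Tpx2, a spindle assembly factor. OS1-2 exceeded OS6 by a median of 2.98 on the log2 scale, or 7.93-fold, against a median of -0.05 over all probes. The difference ran from 0.40 for Tyms to 4.88 for Top2a, which is 29.4-fold, and it was 4.78 (27.4-fold) for Mki67. The otosphere range was wider than the CSE range for 42 of 42 genes, as for 60.9% of probes, with medians of 2.98 and 0.57. Arrays of the same otosphere sample differed far less: the median absolute difference was 0.105 between OS1 and OS2 (at most 0.533) and 0.0399 between OS4 and OS5 (at most 0.212). In these bulk RNA samples, fewer dividing cells and less of these RNAs per cell cannot be told apart.

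**Figure D2:**
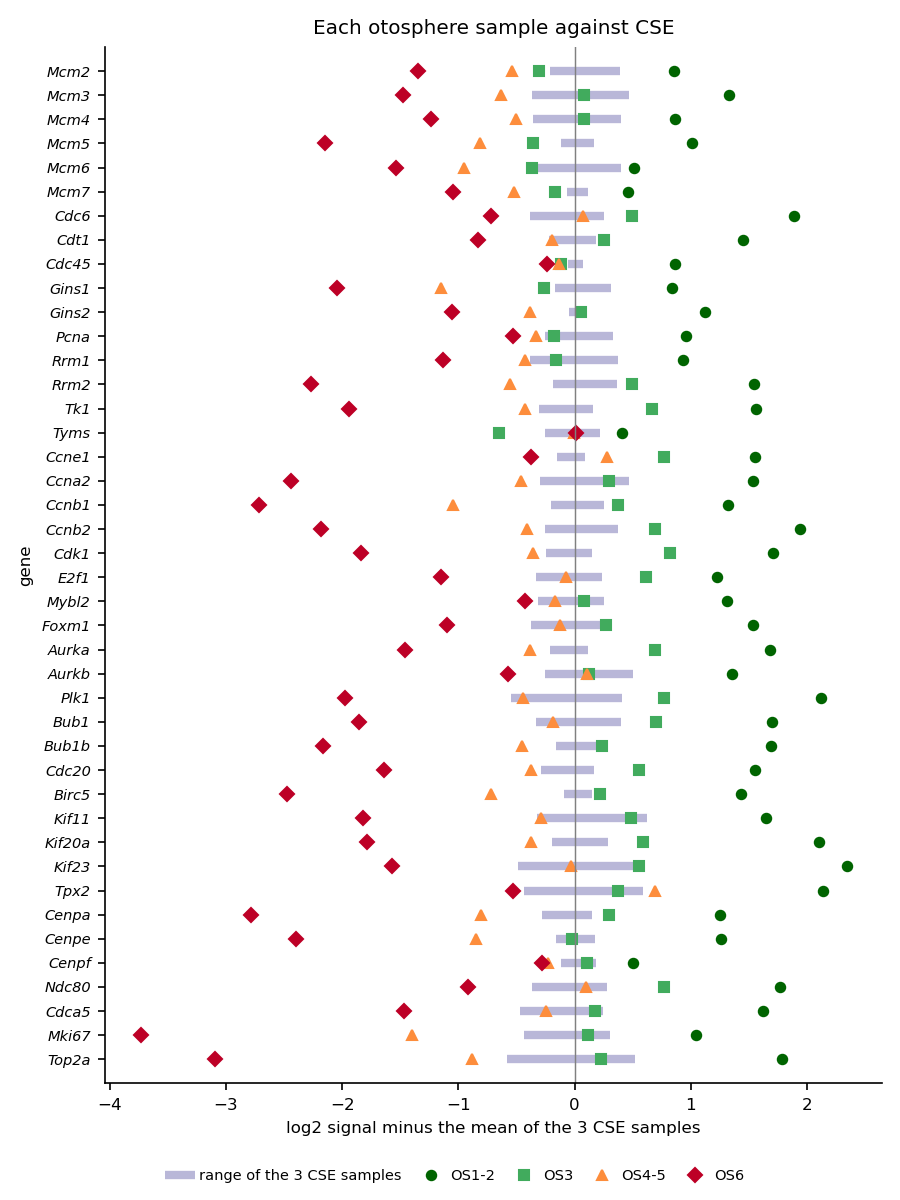
For each gene (vertical axis), the log2 signal of every otosphere sample minus the mean of the 3 CSE samples (horizontal axis), with the CSE range as a bar. OS1-2 lies to the right of the bar for 42 of 42 genes and OS6 to the left for 41.

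Set against CSE, OS1-2 was above all 3 CSE samples for 42 genes (30.7% of probes), by a median of 1.44 over the CSE mean, and OS6 was below all 3 for 41 (28.5%), by a median of -1.50. OS3 was above all CSE samples for 19 genes (26.9% of probes), within their range for 17 (39.0%) and below it for 6 (34.1%). OS4-5 was above for 2 (30.7%), within for 13 (42.2%) and below for 27 (27.1%). Both samples of the second slide were below both of the first for 40 genes, against 17.5% of probes, and 0 genes had the opposite split, against 27.8%. On the first slide the otosphere difference from CSE had a median of 0.76 and was above 0 for 40 of 42 genes, and on the second it was -0.84 and below 0 for 40. The medians over all probes were 0.00 and 0.02. The slide difference of the genes was -1.78 in otospheres, -0.16 in CSE and -0.10 in ESCs at the median. In CSE it sets CSE3 alone against CSE1 and CSE2, and in ESCs it sets ES2 against ES1, which are different lines. When limma was fitted with a mean for each group and slide, a fit chosen after the data had been seen, 0 genes and 0 probes passed the adjusted threshold for the otosphere slide difference, while 36 of 42 genes had an unadjusted p under 0.05, against 13.9% of probes. The test of that difference against the difference in CSE gave 0 genes past the adjusted threshold and 7 of 42 with an unadjusted p under 0.05, against 6.07% of probes. Slide and sphere preparation cannot be told apart in these arrays.

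Replication genes held the same order in 12 of 12 cases, with OS1-2 above OS6 by a median of 2.19. CDC6 loads the MCM helicase at origins, and its gene had the largest positive difference from CSE in the group. The log2 signal of Cdc6 was 8.66 in OS1-2, 7.27 in OS3, 6.84 in OS4-5 and 6.05 in OS6, against 7.02, 6.38 and 6.90 in CSE and 11.14 and 10.98 in the ESC lines. OS1-2 and OS3 were above the CSE samples, OS4-5 was among them and OS6 was below, so the groups overlapped, and the mean difference was 0.44 ± 0.52 (SE, adjusted p = 0.754). Gins1, a subunit of the GINS complex that completes the active helicase, lay at the other end of the group. It had a log2 signal of 10.43, 9.33, 8.44 and 7.55 in OS1-2, OS3, OS4-5 and OS6, and of 9.91, 9.43 and 9.45 in CSE. Only OS1-2 exceeded CSE, and the difference was -0.65 ± 0.57 (SE, adjusted p = 0.627). Pcna encodes the sliding clamp of the DNA polymerases and is also used in repair. It was 14.33 in OS1-2, 13.20 in OS3, 13.04 in OS4-5 and 12.84 in OS6, against 13.70, 13.29 and 13.12 in CSE. Its otosphere range was narrower than that of most of these genes, and otospheres and CSE differed by -0.02 ± 0.36 (SE, adjusted p = 0.991). Subunits of the helicase itself, Mcm2 to Mcm7, differed from CSE by -0.17 (Mcm3) to -0.59 (Mcm6), and Cdt1, the loading factor, by 0.17. Cdc45 and Gins2, which complete the helicase with Gins1, differed by 0.10 and -0.07.

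Nucleotide supply showed the order for 3 of 4 genes. Rrm2, the S phase subunit of ribonucleotide reductase, was 12.72 in OS1-2, 11.67 in OS3, 10.62 in OS4-5 and 8.91 in OS6, against 11.54, 10.99 and 10.99 in CSE, and the groups overlapped. Tk1, the S phase thymidine kinase, was 11.96, 11.06, 9.97 and 8.45 in the same otosphere samples, against 10.55, 10.09 and 10.56 in CSE. For both genes OS1-2 and OS3 were above CSE and OS4-5 and OS6 below. They differed from CSE by -0.20 ± 0.74 and -0.04 ± 0.69 (SE), with adjusted p = 0.944 and 0.992. Rrm1, the large reductase subunit, differed by -0.19. Tyms makes thymidylate and departed from the rest. It was 7.71 in OS1-2, 6.64 in OS3, 7.29 in OS4-5 and 7.31 in OS6, against 7.51, 7.04 and 7.33 in CSE, so OS1-2 was above the CSE samples, OS3 below them and the other samples within their range.

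Cyclins and Cdk1 followed the order in 5 of 5 cases and spread further, with a median of 3.98 between OS1-2 and OS6. Cyclin E1 acts at the entry into S phase. Ccne1 was 11.60 in OS1-2, 10.82 in OS3, 10.33 in OS4-5 and 9.67 in OS6, against 10.11, 9.90 and 10.15 in CSE. All but OS6 were above CSE, and the difference was 0.56 ± 0.41 (SE, adjusted p = 0.544). Cyclin B1 is the partner of CDK1 at the entry into mitosis. Ccnb1 was 11.79 in OS1-2, 10.85 in OS3, 9.42 in OS4-5 and 7.76 in OS6, against 10.73, 10.42 and 10.27 in CSE. OS1-2 and OS3 were above the CSE samples and OS4-5 and OS6 below, with a difference of -0.52 ± 0.80 (SE, adjusted p = 0.828). The dimmer probes of Ccnb1 kept the order of the otospheres but gave positive differences, 0.39 and 0.42, which did not pass. On these probes OS4-5 lay within the CSE range. Ccna2, the S and G2 cyclin, Ccnb2, the second B-type cyclin, and Cdk1 differed from CSE by -0.27, 0.01 and 0.08. Cdk1 had 3 probes, of which the 2 brighter ones were lowest in OS6. The dimmest one lay between 5.67 and 6.42 in all otospheres, lowest in OS3 and highest in OS4-5.

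The transcription factors E2f1, Mybl2 and Foxm1 drive the waves described above. Mybl2, which works with MuvB in G2, was 10.49 in OS1-2, 9.26 in OS3, 9.01 in OS4-5 and 8.75 in OS6, against 9.42, 8.86 and 9.23 in CSE. Foxm1, the factor of late G2 genes, was 9.48, 8.21, 7.82 and 6.85 in the same otosphere samples, against 8.11, 7.57 and 8.16 in CSE. OS1-2 was above and OS6 below CSE for both, and the differences of the means were 0.20 ± 0.41 and 0.15 ± 0.52 (SE), with adjusted p = 0.881 and 0.941. A dimmer probe of Mybl2 gave a difference of the opposite sign, -0.56, which did not pass. On that probe OS1-2 was above the CSE samples and OS3, OS4-5 and OS6 were below. E2f1 differed by 0.16.

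Mitotic kinases and checkpoint genes kept the order in 7 of 7 cases, with a median of 3.55 between OS1-2 and OS6. Birc5, which encodes survivin of the chromosomal passenger complex, was 13.96 in OS1-2, 12.75 in OS3, 11.82 in OS4-5 and 10.06 in OS6, against 12.69, 12.47 and 12.44 in CSE. Its 3 probes gave the same order. Its partner kinase gene Aurkb was dim, at 6.22, 4.99, 4.97 and 4.30 in otospheres and 5.37, 4.61 and 4.62 in CSE, so most of these values sat near the background. The differences from CSE were -0.39 ± 0.75 for Birc5 and 0.25 ± 0.43 for Aurkb (SE, adjusted p = 0.874 and 0.850). Aurka and Plk1, kinases of centrosome and spindle, differed from CSE by 0.13 and 0.12, Bub1 and Bub1b, kinases of the spindle checkpoint, by 0.09 and -0.17, and Cdc20 by 0.02.

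Among the spindle genes, Tpx2, which activates Aurora A on microtubules, had the largest positive difference from CSE of all 42 genes. It was 10.80 in OS1-2, 9.03 in OS3, 9.36 in OS4-5 and 8.13 in OS6, against 9.25, 8.22 and 8.50 in CSE, and the difference was 0.67 ± 0.55 (SE, adjusted p = 0.594). OS1-2 and OS4-5 were above CSE, and OS6 was the only otosphere below it. A second, dimmer probe of Tpx2 was lowest in OS3 and highest in OS4-5 among otospheres, with OS6 within the CSE range. Kif11, the motor that pushes the spindle poles apart, was 8.75, 7.59, 6.81 and 5.28 in the otospheres and 7.73, 6.78 and 6.80 in CSE, with a difference of 0.01 ± 0.76 (SE, adjusted p = 0.999). Kif20a and Kif23, motors of the midzone and of cell separation, differed by 0.14 and 0.32.

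At the kinetochore, Cenpa encodes the histone variant that marks centromeres and Ndc80 the microtubule coupler. Cenpa was 11.07 in OS1-2, 10.12 in OS3, 9.02 in OS4-5 and 7.03 in OS6, against 9.95, 9.97 and 9.54 in CSE. Ndc80 was 8.80, 7.81, 7.14 and 6.12 in the otospheres and 7.32, 7.12 and 6.67 in CSE. For both, OS1-2 and OS3 were above CSE, while OS4-5 was below CSE for Cenpa and within its range for Ndc80. The differences were -0.51 ± 0.81 and 0.43 ± 0.57 (SE, adjusted p = 0.836 and 0.790). Cenpe, a kinetochore motor, and Cdca5, which encodes the cohesion protector sororin, differed by -0.50 and 0.02. Cenpf, dim on most arrays, differed by 0.03.

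Mki67 and Top2a had the widest spread of all. Mki67 encodes the Ki-67 protein that coats mitotic chromosomes and is the usual marker of cycling cells. It was 12.99 in OS1-2, 12.07 in OS3, 10.55 in OS4-5 and 8.21 in OS6, against 12.26, 12.08 and 11.51 in CSE. Top2a was 10.87 in OS1-2, 9.31 in OS3, 8.20 in OS4-5 and 5.99 in OS6, against 9.61, 9.15 and 8.51 in CSE. OS3 sat among the CSE samples for both genes, with OS1-2 above them and OS4-5 and OS6 below. The differences of the means, -0.99 ± 1.07 for Mki67 and -0.49 ± 0.95 for Top2a (SE), had adjusted p = 0.719 and 0.871.

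Against ESCs the same genes were lower in otospheres. Of 42 genes, 37 were lower by limma, against 15.6% of all probes, and 0 were higher, against 12.1%. The difference was below 0 for 42 of 42, with a median of -3.18 and a range of -6.38 to -0.57, against a median of -0.03 over all probes, and 40 had an unadjusted p under 0.05. For 39 genes every otosphere sample was below both ESC lines, which was so for 25.5% of probes. All 12 replication genes were lower, as were all 4 of nucleotide supply, 5 of 5 cyclins and Cdk1, 3 of 3 transcription factors and 7 of 7 mitotic kinases and checkpoint genes. Of the spindle genes 2 of 4 passed, of the kinetochore and cohesion genes 3 of 5, and of the chromosome structure genes 1 of 2. With ES1 left out 23 genes passed, and with ES2 left out 24, the other line then standing alone and assumed to vary like the other groups.

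Mybl2 had the largest difference. It was 16.19 and 15.33 in ES1 and ES2, 6.38 ± 0.47 (SE) above otospheres or 83.5-fold (adjusted p = 2.84e-05). Ccne1 was 14.44 and 15.25 in the ESC lines, 18.9-fold above otospheres (adjusted p = 0.000252), and Mcm5 was 26.4-fold above them (adjusted p = 0.000948). Ccnb1 was 14.13 and 14.37 and Top2a 12.84 and 12.79, and they were 19.6-fold and 18.7-fold above otospheres (adjusted p = 0.00710 and 0.0172). Pcna, at 14.53 and 15.17, was 2.83-fold above (adjusted p = 0.0237), and Tyms 1.88-fold (adjusted p = 0.0488). OS1-2, the highest otosphere sample, was below both ESC lines for 39 of the 42 genes, against 40.6% of probes.

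**Figure D3:**
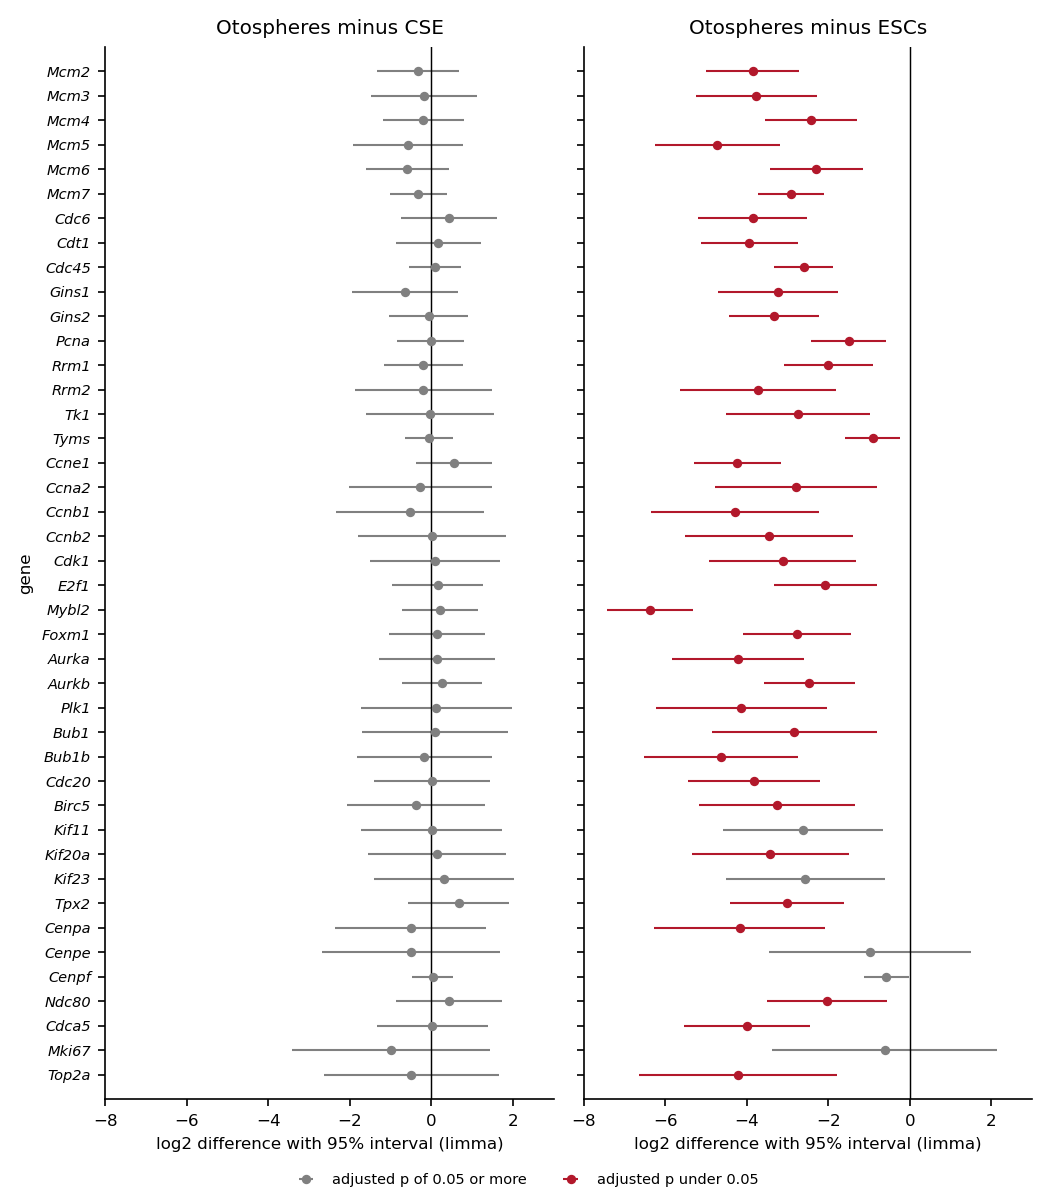
Mean difference between otospheres and CSE (left) and between otospheres and ESCs (right) for each gene, on the log2 scale, with 95% intervals from limma. Red marks an adjusted p under 0.05. On the left the intervals of all 42 genes include 0, and on the right 37 genes are red.

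The 5 genes that did not pass were Kif11 (-2.63, adjusted p = 0.0521), Kif23 (-2.56, adjusted p = 0.0552), Cenpf (-0.57, adjusted p = 0.125), Cenpe (-0.99, adjusted p = 0.565) and Mki67 (-0.62, adjusted p = 0.759). In Cenpe, Mki67 and Kif11 the 2 ESC lines stood apart. Mki67 was 10.21 in ES1 and 12.94 in ES2, so ES1 was below every otosphere and CSE sample but OS6. Its other probe gave 10.14 and 12.66. Cenpe was 9.04 in ES1 and 12.70 in ES2, and Kif11 8.83 and 10.64. Bub1, which passed narrowly (adjusted p = 0.0439), was 9.68 in ES1 and 11.69 in ES2. These 4 genes had the largest ESC differences of the 42, where the median difference between the lines was 0.36, and they were picked out after their values had been seen. The lines lay on different slides, so line and slide cannot be told apart.

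CSE gave nearly the same picture against ESCs. These comparisons share the ESC lines, so they are not independent. In CSE 36 of 42 genes were lower than in ESCs (15.6% of probes) and 0 were higher (13.2%), with a median of -3.06, against -0.06 over all probes. In 40 genes all CSE samples were below both ESC lines, against 28.5% of probes. Mybl2 was again the furthest, at -6.59 ± 0.49 (SE, adjusted p = 3.23e-05), and Mki67 was the only gene with a positive difference, at 0.37 ± 1.28 (SE, adjusted p = 0.874). The count fell to 20 without ES1, to 19 without ES2 and to 23 without CSE2.

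Other genes of the same processes were read from lists of their own. Of 41 further replication genes, such as those for origin recognition, DNA polymerases and ligase, 35 were lower in otospheres than in ESCs (15.6% of probes), 0 were higher than in CSE (4.84%) and 1 was lower (6.19%). Of 47 further mitosis genes, such as condensins and checkpoint proteins, 39 were lower in otospheres than in ESCs, 1 was higher than in CSE and 0 were lower, against the same shares of probes. The order of the otospheres from OS1-2 down to OS6 held for 28 of the 41 and for 40 of the 47, against 5.96% of probes. The gene lower than in CSE was E2f2, an E2F activator, at 9.61, 8.94, 8.59 and 8.27 in the otospheres against 10.48, 9.92 and 10.10 in CSE, with no overlap (difference -1.31 ± 0.31, SE, adjusted p = 0.0260). The gene higher than in CSE was Wee1, the kinase that holds CDK1 inactive before mitosis, at 10.49, 10.04, 10.32 and 10.08 against 8.95, 8.17 and 8.50 (difference 1.70 ± 0.24, SE, adjusted p = 0.00250). All otospheres were above all CSE samples, and the otosphere values of Wee1 lay close together.

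**Figure D4:**
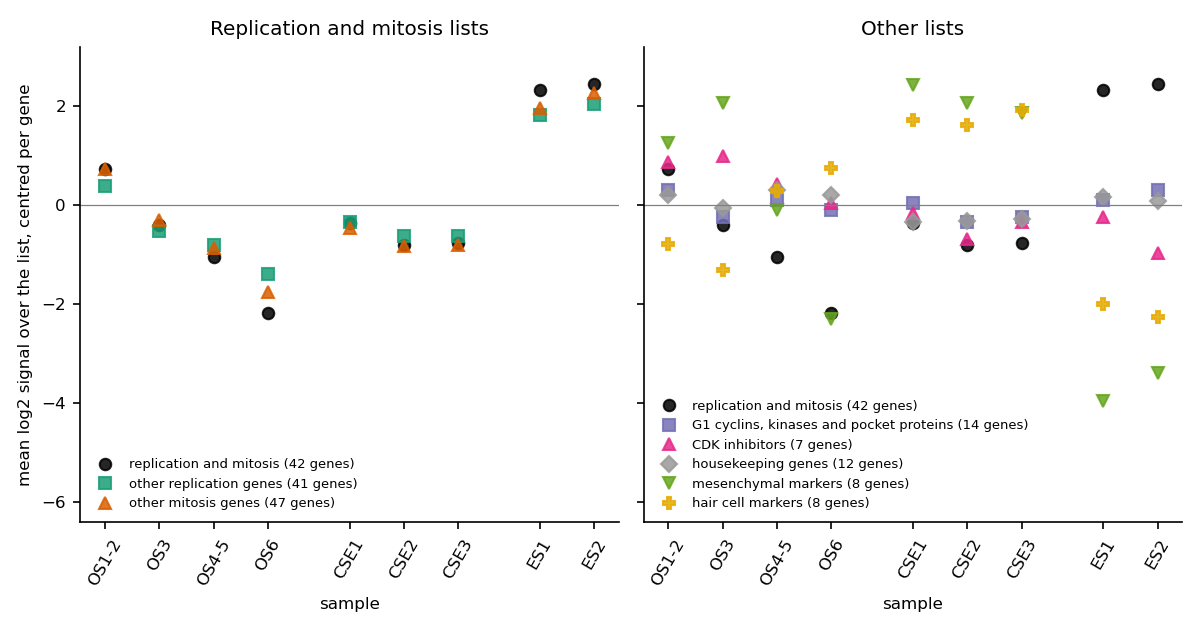
Mean log2 signal over each gene list, centred per gene, in the 9 samples. Each point is 1 list in 1 sample. The replication and mitosis lists (left) are highest in OS1-2 and lowest in OS6 among otospheres, at 0.73 and -2.17 for the 42 genes, while housekeeping genes and G1 genes (right) stay between -0.34 and 0.32 in all samples.

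Genes that act in G1 were a separate list. Of 14 G1 cyclins, kinases, pocket proteins and their regulators, 3 were higher in otospheres than in CSE (4.84% of probes) and 1 was lower (6.19%). The order of the otospheres held for 3 of the 14 (21.4%, against 5.96% of probes). Ccnd1 encodes cyclin D1, which couples growth factors to the cell cycle. It was 15.12 in OS1-2, 14.43 in OS3, 15.12 in OS4-5 and 14.85 in OS6, against 13.06, 12.95 and 13.11 in CSE and 12.74 and 12.47 in the ESC lines. Every otosphere was above every CSE and ESC sample, by 1.84 ± 0.20 over CSE (SE, 3.58-fold, adjusted p = 0.000743), and OS6 lay within the range of the other otospheres. Myc, a growth-promoting factor, was 10.50, 9.03, 9.92 and 9.63 in otospheres against 8.72, 7.70 and 7.89 in CSE (1.67 ± 0.42, SE, adjusted p = 0.0373). Its relative Mycn moved the other way, at 8.16, 7.29, 8.55 and 8.63 against 10.64, 9.91 and 9.98 (-2.02 ± 0.35, SE, adjusted p = 0.00670), and it was 13.50 and 14.05 in the ESC lines. The third gene higher in otospheres, E2f5, a repressive E2F, differed by 1.27 (adjusted p = 0.00603) and was named for completeness after its values had been seen.

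Of 7 inhibitors of cyclin-dependent kinases, 2 were higher in otospheres than in CSE (4.84% of probes), 1 was lower (6.19%) and 4 did not pass. Cdkn2b (p15) was 12.76 in OS1-2, 12.87 in OS3, 11.67 in OS4-5 and 11.04 in OS6, against 7.49, 6.51 and 6.98 in CSE, a difference of 5.10 ± 0.55 (SE, 34.2-fold, adjusted p = 0.000727). Cdkn1a (p21, a p53 target) was 12.88, 12.80, 13.74 and 14.56, against 11.43, 10.62 and 11.57 in CSE, a difference of 2.29 ± 0.50 (SE, adjusted p = 0.0201). For both genes the otospheres were all above CSE, and both probes of each passed. Cdkn1c (p57, the inhibitor kept in quiescent cells) was 11.78, 11.89, 13.21 and 14.54, against 15.76, 15.89 and 15.60 in CSE, a difference of -2.90 ± 0.60 (SE, adjusted p = 0.0157) with every otosphere below CSE. Cdkn1a and Cdkn1c were both highest in OS6, and both lower in OS1-2 and OS3 than in OS4-5. Cdkn2a (p16 and p19Arf) ran the other way, at 11.80, 12.06, 8.23 and 5.94, against 5.66, 5.09 and 5.66 in CSE, and its difference of 4.04 ± 1.33 (SE) had an adjusted p = 0.0971. Cdkn2b, on both probes, was likewise lower in OS4-5 and OS6 than in OS1-2 and OS3. Such splits are common: both otosphere samples of the second slide were above both of the first for 27.8% of all probes, and below for 17.5%. The remaining inhibitors are not described sample by sample. Whether any inhibitor has a part in the levels of the 42 genes was not tested.

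**Figure D5:**
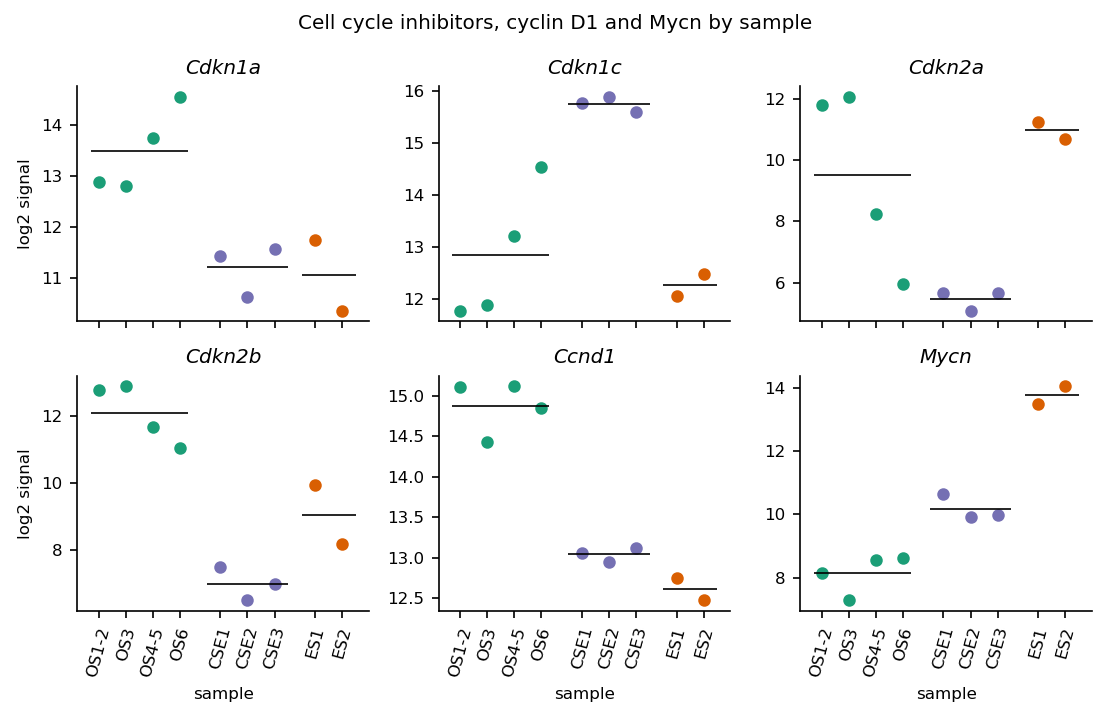
Log2 signal of 4 inhibitors of cyclin-dependent kinases, cyclin D1 (Ccnd1) and Mycn in each sample, with group means as lines (otospheres green, CSE purple, ESCs orange). Axes do not start at 0. Cdkn1a and Cdkn1c are highest among otospheres in OS6 (14.56 and 14.54), Cdkn2a and Cdkn2b in OS3 (12.06 and 12.87), and Ccnd1 is above 14 in every otosphere.

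Markers of other cell types also differed among the otospheres. Of 8 mesenchymal markers, 7 were lower in both OS4-5 and OS6 than in OS1-2 and OS3, against 17.5% of probes. Their mean centred log2 signal was 1.27 in OS1-2, 2.07 in OS3, -0.09 in OS4-5 and -2.29 in OS6, and 1.87 to 2.43 in CSE. All 8 were well above background in OS1-2, OS3, OS4-5 and CSE, and 6 were in OS6. Their summed linear signal was 81419 to 264071 in otospheres, 192630 to 297193 in CSE and 2719 to 3315 in ESCs. Col1a2, the collagen chain, was at 8.61 in OS6 against 15.17 in OS1-2, whereas Dcn, for the matrix proteoglycan decorin, was at 15.51 and 15.78 and so differed little. The list mean of hair cell markers ran the opposite way, at -0.77, -1.31, 0.30 and 0.76, with 7 or 8 of 8 markers well above background. Their summed signals were 2004 to 9513 in otospheres and 17795 to 31765 in CSE. The list means of macrophage, endothelial, erythroid and neuronal markers were lower in every otosphere sample than in every CSE sample. Single markers did not all differ: 5 of 7, 4 of 8, 4 of 8 and 6 of 8 were called lower in otospheres, against 6.19% of probes. The part of these cell types in the levels of the replication and mitosis genes was not tested. Of 12 housekeeping genes, 2 were higher in otospheres than in CSE, B2m (2.51) and Hprt (0.69), which is 16.7% against 4.84% of probes. The order of the otospheres held for 1 of the 12, or 8.33%, against 5.96% of probes.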

How the data were processed

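Cy3-labelled RNA had been hybridised to 11 Agilent arrays. The median spot intensity and local background, as deposited by the authors, came from Feature Extraction 10.7.3.1 on a linear scale, without normalization between arrays. The authors also deposited a log2 table, background-corrected, quantile-normalized and filtered, used here as an alternative. Labelling started from 1 of 2 RNA amounts, and the sources used here do not say which sample had which.

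Here, the normexp method of limma 3.58.1 (offset 16; R 4.3.3) removed background, and log2 intensities of the 11 arrays were quantile-normalized, so values are relative within an array. Outlier and control spots were removed and spots of a probe averaged. A probe was kept (47997 of 55681) if 2 or more arrays showed it 10% above the 95th percentile of their 308 negative control spots. RefSeq accessions named 26762 probes (GRCm38.p6). A limma fit of 3 group means over the 9 samples gave differences with standard errors, and p-values were adjusted over all kept probes (Benjamini-Hochberg, threshold 0.05). The fit was also run on simulated data with independent noise for each probe and no slide effect. That setting lacks the sample order shared by these genes, so no conclusion is drawn from it here.

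Arrays OS1 and OS2 were averaged, as were OS4 and OS5, because among probes above log2 10 their spread was 1.00 and 0.446 times that between spots of a probe, against 1.77 for the next pair. Members and lists were chosen with earlier results of these data known. Values in every sample are given for the genes with the largest and smallest difference from CSE in each role and for Mki67, Top2a, Pcna and Ccnb1. Of other lists, the 2 largest rises and falls that passed and every inhibitor or D-type cyclin that passed are named. Tyms, Cenpe, Bub1, E2f5 and Cdkn2a were added after their values were seen. The closing text gives the alternatives. The number of arrays limits the precision.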

Additional observations from a re-analysis of the deposited data

Results flagged for a closer look

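Cdc45, a subunit of the replicative helicase, had a log2 signal of 7.57 in OS1-2, while the median of the other 3 otosphere samples was 6.59. The gap between OS1-2 and its nearest neighbour was 0.892 of the whole otosphere range, wider than the limit set for 4 samples. Chance flags about 1 in 20 groups of 4 samples, and 1 of the 42 genes was singled out in this way.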

How the results depend on the processing

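Under 10 alternatives that changed the processing (offset 0 or 50, scaling to the 75th percentile, the deposited log2 table, at least 3 arrays or no filter, every array as a separate sample, slide as a block, the replicate block, the mean over probes), 32 to 38 genes were lower in otospheres than in ESCs, 34 to 38 lower in CSE than in ESCs, and 39 to 40 lower in all of OS4-6 than in all of OS1-3. With a sample left out, the counts against ESCs ran from 23 to 40 in otospheres and from 19 to 38 in CSE. The count for OS4-6 against OS1-3 was 40 where it could be made. Leaving out a CSE or ESC sample does not alter the differences between otospheres. Such settings could not have moved that count, so they do not test it. Between otospheres and CSE, 0 genes passed in each direction except with the replicate block, where 9 were higher and Rrm2 and Top2a were at 1.19 and 1.26 on the log2 scale. OS4 to OS6 have no partner of the same number, so that fit rests on OS1-3 by construction. Deviations from the group means correlated at 0.36 for OS1 and CSE1, at -0.34 for OS2 and CSE2 and at -0.39 for OS3 and CSE3. OS1 and OS2 nearly coincide and deviations within a group cancel out, so these values cannot show whether the numbers pair the samples. Scaling to the 75th percentile moved the median of all probes in otospheres minus ESCs from -0.03 to -0.28, and that in CSE minus ESCs from -0.06 to -0.25, and 38 genes were then lowest in OS6. In the deposited log2 table the otosphere minus ESC difference shrank to -0.30 for Bub1 and -0.41 for Cdca5, from -2.83 and -4.01. Dim probes (Aurkb, Cenpf) and the 2 ESC lines limit what can be seen.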
